A study of Mus musculus with 6 samples.

Results

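The autophagy genes described here are 37 mouse genes that encode the machinery of macroautophagy. They were chosen by name, and every non-control probe whose transcript accession, without its version, led to 1 of these symbols in a table of RefSeq genes was taken as theirs. All 37 had at least 1 probe, and 60 of the 56601 tested probes belonged to them, out of 23462 genes that could be named. Of the 37 genes, 20 had 1 probe and 17 had several, up to 6 for *Rb1cc1*.

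The study asked what the transcription factor BHLHE41 does in microglia, the resident macrophages of the brain. Microglia of young C57BL/6 mice were enriched on Percoll and sorted as live CD45 low, Cx3cr1+ and CD11b+ cells. The 3 samples of the control group, B41 HET, carried 1 copy of the Bhlhe41 dTomato-Cre allele (Bhlhe41 dTomato-Cre/+), and the 3 samples of the B41 KO group carried it on both chromosomes (Bhlhe41 dTomato-Cre/dTomato-Cre). In that allele a cassette for dTomato, Cre and a polyadenylation signal sits ahead of the Bhlhe41 start codon, so both groups made Cre and dTomato wherever the gene is active, and the controls were heterozygous rather than wild type. The labels give 3 biological replicates per genotype, and the study's methods describe each sample as RNA pooled from several mice, so that differences between single animals are not seen. RNA was labelled with Cy3 and hybridised to 6 mouse Agilent arrays in 1 colour, which give 1 fluorescence intensity per probe and sample. Values below are log2 signals after quantile normalization, and differences are B41 KO minus B41 HET.

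Macroautophagy encloses cytoplasm, organelles or protein aggregates in a double membrane, the phagophore, which closes into an autophagosome and is emptied into lysosomes. The ULK1 kinase complex starts the process, a class III phosphatidylinositol 3-kinase marks the membrane, ATG9 vesicles and the lipid transfer protein ATG2 supply it, and conjugation enzymes attach proteins of the Atg8 family (LC3 and GABARAP) to it. Cargo receptors such as p62 bind both cargo and Atg8 proteins. In microglia this machinery takes part in the breakdown of engulfed material and of protein aggregates. An array measures transcript levels, not the flux through this pathway.

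On every array, 70.1% to 75.5% of the probes lay well above background and no spot was saturated. All 6 arrays lay on 1 slide, with the 3 B41 HET arrays and B41 KO replicate 1 in its row 1 and B41 KO replicates 2 and 3 in row 2, so genotype and row overlap in large part. The 2 probes for Bhlhe41 differed by 0.38 (adjusted p = 0.33 by limma with Benjamini-Hochberg adjustment) and 0.33 (adjusted p = 0.203) and neither was called, so the transcript level does not check the genotypes. The microglial identity of the samples was checked on 10 markers, such as *P2ry12* and *Tmem119*, all of which were above background on all 6 arrays, and 1 of them, *Fcrls*, was called lower in B41 KO. Markers of other cell types moved with genotype. Of 12 neutrophil markers 8 were called lower in B41 KO, with a median difference of -2.01, and their summed linear signal was 30925 to 34742 on the B41 HET arrays and 6226 to 6589 on the B41 KO arrays. Of the others, *Mpo* differed by 0.39 (adjusted p = 0.157 by limma), *Mmp8* by -0.61, *Elane* by -0.04 and *Cxcr2* by -0.09. All 12 neutrophil markers were above background on all 6 arrays. Of 10 border macrophage markers 5 were called lower, with sums of 2404 to 2596 and 1638 to 1816, and *Mrc1* and *Lyve1* were above background on no B41 KO array. Most of these sums came from *Stab1*, which differed by -0.49 (adjusted p = 0.028 by limma) and was not called. Of 6 endothelial markers 2 were called lower, *Ly6c1* (-1.79) and *Pecam1* (-1.68), with sums over the list of 1144 to 1253 and 395 to 447. These 2 markers made up most of the sums. *Cldn5*, above background on all 6 arrays, differed by -0.13 (adjusted p = 0.473 by limma), and 3 of the 6 were above background on no array. None of 5 astrocyte and 5 neuron markers was called. In such bulk samples, fewer cells of a type and less RNA per cell cannot be told apart. The part of these other cells in the differences given below was not tested.

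Most autophagy genes differed little between the genotypes, and those that passed the test were lower in B41 KO. A gene was read by its brightest probe, and was called changed at an adjusted p of 0.05 or less (limma, Benjamini-Hochberg over all 56601 probes) with a difference of at least 0.5 on the log2 scale. No autophagy gene was called higher, where 1.44% of all named genes were, and 3 of 37 were called lower, where 4.01% of all named genes were. These 3 were *Sqstm1*, the cargo receptor p62, *Rb1cc1*, the scaffold FIP200 of the ULK1 complex, and *Atg9a*, the transmembrane protein of the vesicles that seed the phagophore. They were 1.54-, 1.56- and 1.49-fold lower in B41 KO. At an adjusted p of 0.05 or less with no demand on size, *Atg2a* was added as the 1 gene that was higher, which makes 4 of 37 genes where 7.56% of all genes passed. At an unadjusted p under 0.05 by limma, 2 of 37 genes were higher, where 10.6% of all genes were, and 12 of 37 lower, where 14.4% of all genes were. By probes, 5 of the 60 were called, where 5.07% of all probes were.

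The differences of the other genes were small. Of the 37 genes, 34 differed by less than 0.5 on the log2 scale and 17 by less than 0.2. The sign was negative for 27 and positive for 10, and the median difference was -0.14, beside 0.0067 over all named genes. The median size of the difference was 0.22, beside 0.19 over all named genes. The 3 B41 HET and the 3 B41 KO values did not overlap for 17 of the 37 genes, where this held for 32.2% of all named genes, and of these 17 genes 14 were lower and 3 higher in B41 KO, where 18% of all named genes did not overlap and were lower and 14.2% did not overlap and were higher. The median over the 37 genes of the deviation from the B41 HET mean was 0.04, 0.0040 and -0.04 on B41 HET arrays 1 to 3, and -0.13, -0.12 and -0.18 on B41 KO arrays 1 to 3. All 3 B41 KO arrays thus lay below all 3 B41 HET arrays in this median, while the same median over all named genes stayed between -0.01 and 0.01 on every array. Quantile normalization gives every array the same distribution of signals, so the medians over all named genes were held near no difference in advance. For 36 of the 37 genes the brightest probe was well above background on all 6 arrays. The exception was *Atg4a*, whose only probe was above background on 1 array of each genotype.

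**Figure D1:**
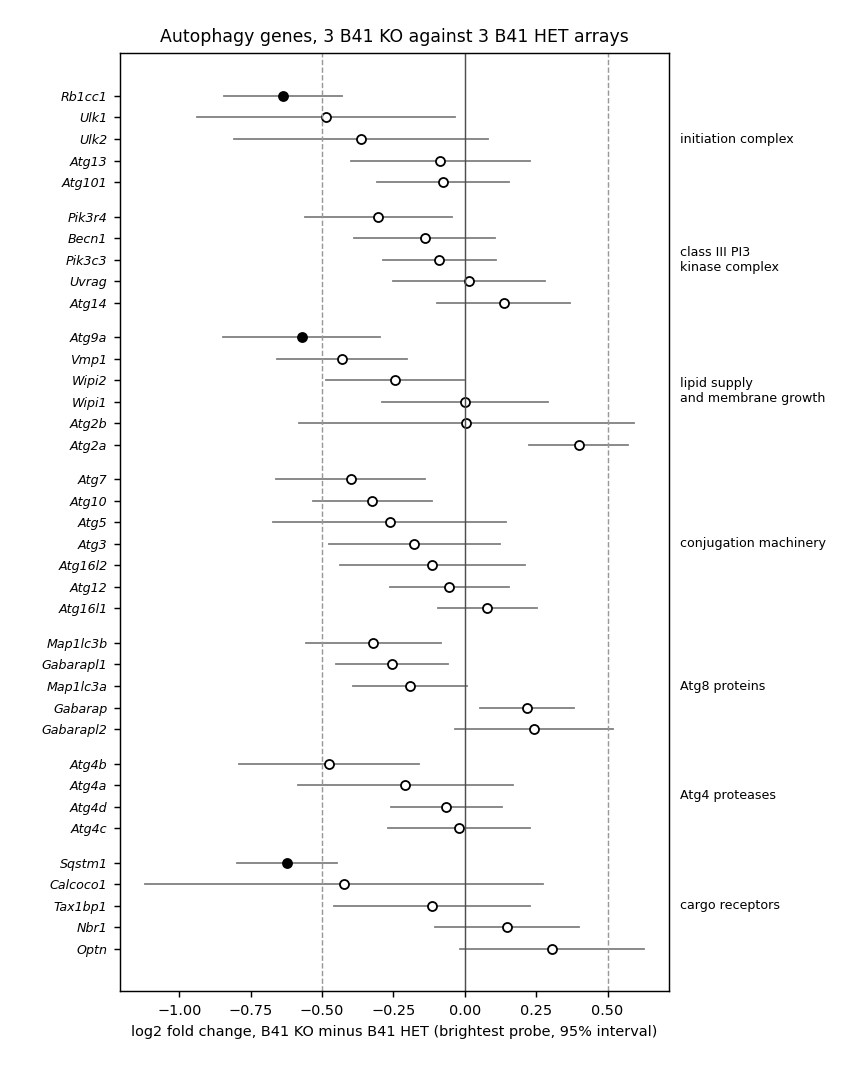
Log2 fold change of the 37 autophagy genes, B41 KO minus B41 HET, on the horizontal axis, with genes grouped by role on the vertical axis. Circles are the brightest probe, lines its 95% interval from limma (3 arrays per genotype), filled circles the genes called changed, and dashed lines the 0.5 log2 threshold. The 3 filled circles, Rb1cc1, Atg9a and Sqstm1, lie left of -0.5, and the other 34 genes lie between -0.49 and 0.40.

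Among the cargo receptors, *Sqstm1* gave the difference with the smallest adjusted p of all 37 genes. p62 binds ubiquitinated proteins and is itself broken down with them. Its brightest probe read 12.61, 12.54 and 12.56 in B41 HET replicates 1 to 3 and 12.01, 11.95 and 11.88 in B41 KO replicates 1 to 3. Every B41 KO array lay below every B41 HET array, by more than the spread within either genotype. The difference was -0.62 ± 0.07 (SE, n = 3 arrays per genotype, adjusted p = 0.0115 by limma), and the exact two-sided permutation test of the 6 values gave p = 0.1, the smallest that 3 against 3 samples allow. A second, dimmer probe differed by -0.42 ± 0.16 (adjusted p = 0.188 by limma), also with no overlap. The call was lost without B41 HET replicate 1 (adjusted p = 0.0517 by limma) and without B41 HET replicate 2 (adjusted p = 0.0576), and with slide row as a block (difference -0.56, adjusted p = 0.109).

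*Tax1bp1*, a ubiquitin-binding receptor, was read differently by its 3 probes. The brightest read 10.77, 11.23 and 11.20 in the B41 HET replicates and 10.92, 10.99 and 10.95 in the B41 KO replicates, so the groups overlapped (difference -0.11 ± 0.14, SE, adjusted p = 0.689 by limma). A second probe read 10.74, 10.68 and 10.74 in B41 HET and 10.10, 10.27 and 10.18 in B41 KO. On that probe the groups were apart and the gene was called lower (-0.54 ± 0.08, SE, adjusted p = 0.0199 by limma), while the third probe differed by 0.10. The other three receptors were not called: *Calcoco1* at -0.42 ± 0.28 (SE), *Nbr1* at 0.15 ± 0.10 and *Optn*, the receptor optineurin, at 0.31 ± 0.13.

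In the initiation complex all 5 genes were lower in B41 KO by sign, and 1 was called. *Rb1cc1* read 11.18, 11.18 and 11.24 in the B41 HET replicates and 10.52, 10.69 and 10.48 in the B41 KO replicates on its brightest probe, with all B41 KO arrays below all B41 HET arrays. The difference was -0.64 ± 0.08 (SE, adjusted p = 0.0164 by limma). The 6 probes of this gene did not give 1 reading. Another called probe differed by -0.95 ± 0.11 (SE, adjusted p = 0.0128 by limma), but it was dim and above background on 3 B41 HET arrays and 1 B41 KO array. The other 4 probes differed by -0.12 to 0.29 and none was called, and the mean over all 6 probes differed by -0.22 (adjusted p = 0.157 by limma). Leaving out B41 HET replicate 1, 2 or 3 or B41 KO replicate 1 or 3 also ended the call on the brightest probe, at adjusted p = 0.0627, 0.0725, 0.0613, 0.0611 and 0.0509 by limma in that order. With slide row as a block the difference was -0.68 (adjusted p = 0.113).

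*Ulk1*, the kinase that starts autophagy when nutrients are short, read 8.93, 8.83 and 8.29 in B41 HET and 8.31, 8.14 and 8.14 in B41 KO on its brightest probe. The groups overlapped, with B41 HET replicate 3 below B41 KO replicate 1. The difference of -0.49 ± 0.18 (SE) was not called (adjusted p = 0.19 by limma), and the second probe differed by 0.06. Its paralogue *Ulk2* differed by -0.36 ± 0.18, and the adaptors *Atg13* and *Atg101* by -0.09 ± 0.13 and -0.08 ± 0.09.

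No gene of the class III PI3 kinase complex was called. *Becn1*, the beclin 1 subunit that regulators of autophagy bind, read 7.49, 7.48 and 7.42 in B41 HET and 7.42, 7.14 and 7.40 in B41 KO. The genotypes overlapped, and the difference was -0.14 ± 0.10 (SE, adjusted p = 0.478 by limma), with a 95% interval from -0.39 to 0.11. *Pik3r4*, the regulatory kinase VPS15, differed most in this group. It read 8.44, 8.29 and 8.11 in B41 HET and 7.94, 8.03 and 7.96 in B41 KO, with no overlap between the genotypes (-0.30 ± 0.10, SE, adjusted p = 0.157 by limma). The catalytic subunit *Pik3c3* differed by -0.09 ± 0.08, and the subunits *Atg14* and *Uvrag*, which direct the kinase to phagophores and to endosomes, by 0.14 ± 0.09 and 0.01 ± 0.11.

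Of the 6 genes for lipid supply and membrane growth, 3 were lower and 3 higher by sign. *Atg9a* read 8.32, 8.42 and 8.51 in B41 HET and 8.04, 7.78 and 7.72 in B41 KO on its only probe. The lowest B41 HET array lay above the highest B41 KO array, and the difference was -0.57 ± 0.11 (SE, adjusted p = 0.0428 by limma). This call was close to the threshold: scaled to the 75th percentile of each array it had an adjusted p of 0.0519 by limma, with normexp background correction its size was -0.48, and it was lost without any 1 array other than B41 KO replicate 1, with adjusted p from 0.0972 to 0.135. With slide row as a block it was -0.38 (adjusted p = 0.245). *Atg2a*, which encodes the lipid transfer protein that feeds the phagophore, is described here because it went the other way, a choice made after its values were seen. It read 8.77, 8.88 and 8.84 in B41 HET and 9.22, 9.20 and 9.27 in B41 KO. All B41 KO arrays lay above all B41 HET arrays, and the difference of 0.40 ± 0.07 (SE) had an adjusted p of 0.0331 by limma but was under the 0.5 threshold. Without any 1 array, whichever it was, its adjusted p was between 0.0868 and 0.103 by limma. Its paralogue *Atg2b* differed by 0.0057 ± 0.24. *Vmp1*, a membrane protein of the endoplasmic reticulum, missed the threshold at -0.43 ± 0.09 (adjusted p = 0.0532 by limma), while its second probe differed by -0.0048 (adjusted p = 0.992). The phosphoinositide-binding proteins *Wipi1* and *Wipi2* differed by 0.0012 ± 0.12 and -0.25 ± 0.10.

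**Figure D2:**
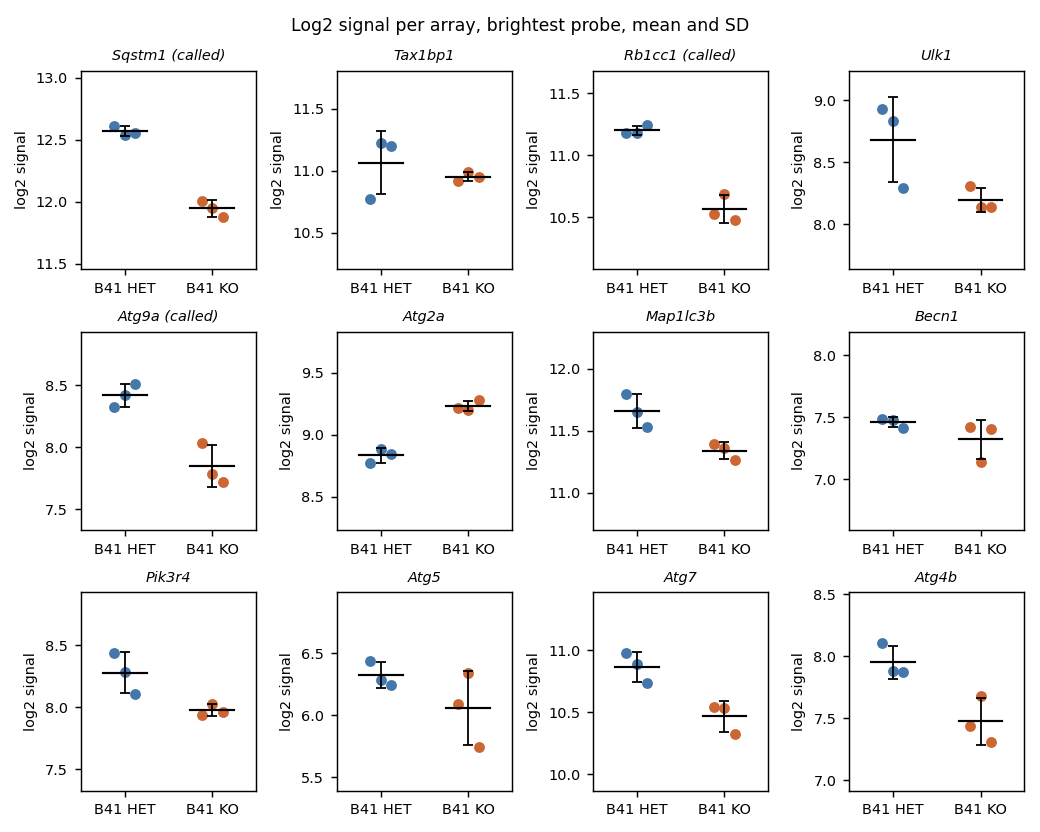
Log2 signal on each array for 12 autophagy genes by their brightest probe, with B41 HET in blue and B41 KO in orange (3 arrays each). Black lines are means and bars 1 SD, each panel has its own axis of the same span, and levels are not comparable between genes. Sqstm1, Rb1cc1 and Atg9a, which were called, and Map1lc3b, Pik3r4, Atg7 and Atg4b, which were not, are apart in the lower direction. Atg2a is apart in the higher direction, while Ulk1, Becn1, Atg5 and Tax1bp1 overlap.

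The conjugation machinery held 7 genes, 6 of them lower by sign, and none was called. *Atg7*, the E1-like enzyme that activates ATG12 and Atg8 proteins, read 10.98, 10.89 and 10.73 in B41 HET and 10.54, 10.54 and 10.32 in B41 KO on its brightest probe. The genotypes did not overlap (-0.40 ± 0.10, SE, adjusted p = 0.0884 by limma), but the second probe differed by 0.06. *Atg5*, which is joined to ATG12 and acts as part of the E3-like enzyme, read 6.44, 6.28 and 6.24 in B41 HET and 6.09, 6.34 and 5.75 in B41 KO. B41 KO replicate 2 lay inside the B41 HET range, and the difference of -0.26 ± 0.16 (SE) was not called (adjusted p = 0.418 by limma). The E2-like enzymes *Atg10* and *Atg3* differed by -0.32 ± 0.08 (adjusted p = 0.0851 by limma) and -0.18 ± 0.12. *Atg12* differed by -0.05 ± 0.08, *Atg16l1*, which places the E3-like enzyme on the membrane, by 0.08 ± 0.07, and *Atg16l2* by -0.11 ± 0.13.

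BHLHE41 binds the E-box CACGTG, which also forms the middle of TCACGTGA, the longer motif that TFEB and its relatives bind at genes of lysosomes and autophagy. Both read the same on both strands. They were searched in RefSeq promoter windows of 300 bases, from 250 before to 50 after the start of transcription, on GRCm38.p6. Windows were given for 31 of the 37 genes. CACGTG was in the windows of 4 of these 31 genes (12.9%), *Atg3*, *Atg5*, *Atg7* and *Atg14*, and in those of 8.09% of the 27025 genes in the table. TCACGTGA was in the window of 1 member, *Atg3* (3.23%), and in those of 1.12% of all genes. The windows of *Sqstm1*, *Atg9a* and *Tax1bp1* held no CACGTG, and none was given for *Rb1cc1*. Of the 4 genes with the motif, none was called. The 250 bases before the start are shown for the 3 members whose motif lies wholly inside them, with CACGTG in capitals, 5′ to 3′ on the plus strand, for *Atg3* at chr16:45158579-45158828, *Atg5* at chr10:44268089-44268338 and *Atg7* at chr6:114670846-114671095.
Atg3: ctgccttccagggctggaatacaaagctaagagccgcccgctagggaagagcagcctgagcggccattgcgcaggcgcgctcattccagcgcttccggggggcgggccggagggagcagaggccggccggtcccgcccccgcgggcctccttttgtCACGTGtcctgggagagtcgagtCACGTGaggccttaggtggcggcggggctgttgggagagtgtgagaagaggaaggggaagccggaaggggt
Atg5: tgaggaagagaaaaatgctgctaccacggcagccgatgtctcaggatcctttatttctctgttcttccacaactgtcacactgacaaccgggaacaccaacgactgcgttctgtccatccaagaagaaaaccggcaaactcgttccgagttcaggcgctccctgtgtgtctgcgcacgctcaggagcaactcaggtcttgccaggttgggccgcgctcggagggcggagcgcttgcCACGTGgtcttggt
Atg7: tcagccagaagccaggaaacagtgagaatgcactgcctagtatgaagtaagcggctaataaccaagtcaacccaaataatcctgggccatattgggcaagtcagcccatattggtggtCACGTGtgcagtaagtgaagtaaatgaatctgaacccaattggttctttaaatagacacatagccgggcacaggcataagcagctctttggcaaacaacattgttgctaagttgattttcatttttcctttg
The *Atg3* stretch held the motif 2 times, and those of *Atg5* and *Atg7* held it 1 time each. A match describes these letters and does not show binding.

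None of the 5 genes of the Atg8 family was called. The values of all 5 did not overlap between the genotypes, as for 32.2% of all named genes, and by sign *Map1lc3a*, *Map1lc3b* and *Gabarapl1* were lower and *Gabarap* and *Gabarapl2* higher in B41 KO. *Map1lc3b*, the LC3B protein whose lipidated form marks autophagosomes, read 11.80, 11.65 and 11.53 in B41 HET and 11.39, 11.36 and 11.27 in B41 KO. Each B41 KO array lay below each B41 HET array (-0.32 ± 0.10, SE, adjusted p = 0.116 by limma), and its second probe differed by -0.21 ± 0.10. *Map1lc3a* differed by -0.19 ± 0.08 and *Gabarapl1* by -0.26 ± 0.08, although the second probe of *Gabarapl1* differed by 0.05. *Gabarap* differed by 0.22 ± 0.07 (adjusted p = 0.12 by limma) and *Gabarapl2* by 0.24 ± 0.11, and the second *Gabarapl2* probe by 0.41 ± 0.09 (adjusted p = 0.0573 by limma). Differences between these 5 genes were not tested.

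The 4 genes for Atg4 proteases, which trim Atg8 proteins before lipidation and release them afterwards, were all lower by sign and none was called. *Atg4b* differed most. It read 8.11, 7.88 and 7.87 in B41 HET and 7.44, 7.68 and 7.31 in B41 KO, with no overlap between the genotypes (-0.48 ± 0.13, SE, adjusted p = 0.0934 by limma). Its second probe differed by -0.08 ± 0.11. *Atg4c* and *Atg4d* differed by -0.02 ± 0.10 and -0.06 ± 0.08, and *Atg4a*, mostly at background, by -0.21 ± 0.15.

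Several genes were read differently by different probes. Of the 17 genes with several probes, the probes of 9 had the same sign and those of 8 had opposite signs, and no gene with several probes was called on all of them. The range was widest for *Rb1cc1*, from -0.95 to 0.29, followed by *Tax1bp1*, from -0.54 to 0.10. Over any probe, 4 of the 37 genes were called, where 7.37% of all named genes were. Which transcripts each probe reads was not tested.

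**Figure D3:**
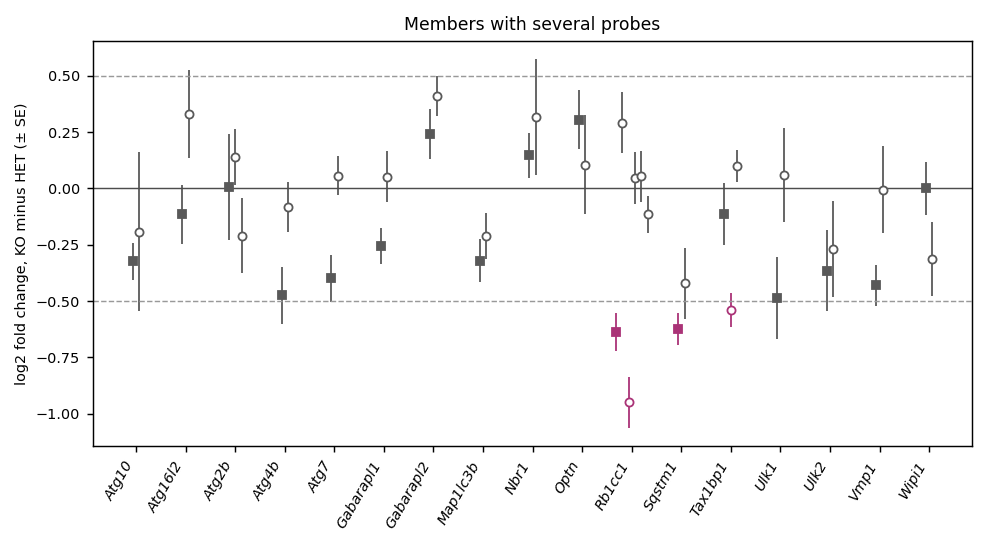
Log2 fold change, B41 KO minus B41 HET, of every probe of the 17 autophagy genes with several probes. Squares are the brightest probe of a gene and open circles its other probes, bars are 1 SE (3 arrays per genotype), purple marks called probes and dashed lines the 0.5 log2 threshold. Of the 6 Rb1cc1 probes 2 lie below -0.5, and in 8 genes the probes lie on both sides of 0.

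Around the core machinery, 79 genes of 5 lists were read in the same way, and 2 were called higher and 9 lower, where 1.44% and 4.01% of all named genes were. The lists were chosen with earlier results of these data known, so these counts are a description and not a test. Among transcription factors of autophagy genes 3 of 10 were called, all lower. *Atf4*, the factor of the integrated stress response, read 11.78, 11.90 and 11.76 in B41 HET and 10.80, 10.81 and 10.68 in B41 KO. The arrays of the genotypes were far apart relative to their spread (-1.05 ± 0.08, SE, adjusted p = 0.0044 by limma), and the call held whichever array was left out, but a second probe differed by -0.12 (adjusted p = 0.435). *Ddit3*, the stress factor CHOP, differed by -0.77 ± 0.13 (adjusted p = 0.0319 by limma), and *Tfe3*, a relative of TFEB, by -0.70 ± 0.10 (adjusted p = 0.0197), with its second probe at -0.30 (adjusted p = 0.284). *Tfeb* itself was not called on its brightest probe, at -0.35 ± 0.11 (adjusted p = 0.138 by limma).

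Of 12 other regulators of the phagophore 3 were called lower. *Bcl2l1*, which encodes the survival protein BCL-XL that binds beclin 1, differed by -0.89 ± 0.13 (adjusted p = 0.0198 by limma), with 2 of its 5 probes called and all 5 negative. *Trp53inp2*, a protein that binds Atg8 proteins, differed by -0.71 ± 0.09 (adjusted p = 0.0151) and *Wdr45b*, a relative of the WIPI proteins, by -0.66 ± 0.09 (adjusted p = 0.0167). Of 14 genes for fusion with the lysosome 1 was called, *Vamp8*, the lysosomal SNARE, at -0.62 ± 0.09 (adjusted p = 0.0222 by limma). Of 16 organelle and other selective receptors and their regulators 1 was called, *Pink1*, the kinase that marks damaged mitochondria, at -0.70 ± 0.08 (adjusted p = 0.0115 by limma), with a second probe at -0.04. In upstream signalling 3 of 27 were called. *Prkab1*, a subunit of the energy sensor AMPK, differed by -0.53 ± 0.07 (adjusted p = 0.0136 by limma). *Ddit4*, the mTORC1 inhibitor REDD1, and *Lamtor2*, a subunit of the complex that anchors mTORC1 at lysosomes, were higher, by 0.58 ± 0.11 (adjusted p = 0.0403) and 0.59 ± 0.10 (adjusted p = 0.0312).

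Of these 11 genes, *Ddit3*, *Vamp8*, *Ddit4* and *Lamtor2* lost the call without any 1 array, whichever it was, with adjusted p from 0.0526 to 0.114 by limma, and *Pink1* kept it in 5 of 6 such fits, *Trp53inp2* in 3, *Tfe3* in 2 and *Bcl2l1*, *Prkab1* and *Wdr45b* in 1. With slide row as a block, where only B41 KO replicate 1 is set against B41 HET, none of the 11 was called, *Atf4* being nearest at -1.01 (adjusted p = 0.0553 by limma). In that fit the 9 lower genes differed by -1.01 to -0.53, *Ddit4* by 0.64 and *Lamtor2* by 0.50. When the probes of each gene were averaged, *Pink1* (-0.37, adjusted p = 0.0844 by limma), *Tfe3* (-0.50, adjusted p = 0.0546) and *Prkab1* (-0.43, under the threshold of size) were not called. In that setting *Atf4* and *Bcl2l1* stayed called at smaller sizes, -0.58 (adjusted p = 0.0152 by limma) and -0.53 (adjusted p = 0.0301). With normexp, *Trp53inp2* (-0.45), *Ddit4* (0.49) and *Lamtor2* (0.47) fell under the threshold of size, as did *Prkab1* on the authors' processed values (-0.496). Scaled to the 75th percentile, *Ddit4* had an adjusted p of 0.0569 by limma, and a fold of at least 1.5 left out *Ddit4* and *Prkab1*.

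**Figure D4:**
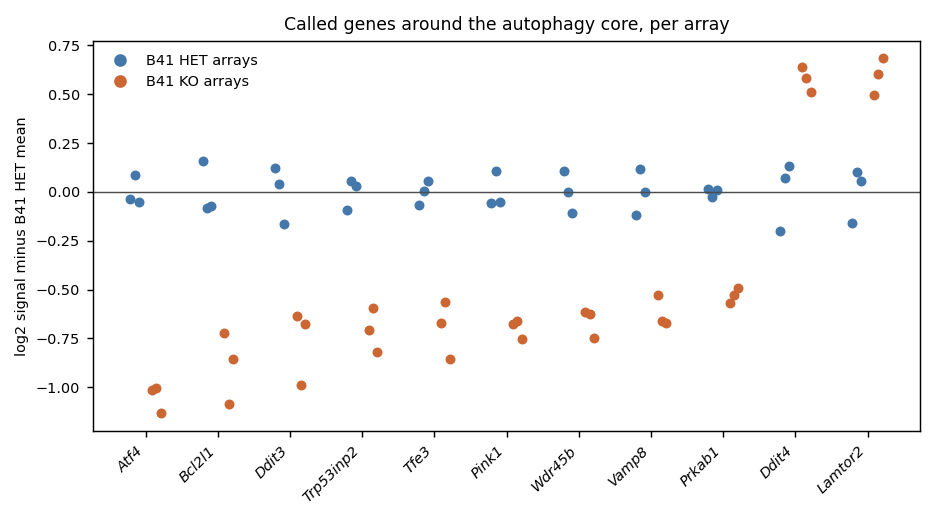
Log2 signal minus the B41 HET mean on each of the 6 arrays for the 11 called genes around the autophagy core, by their brightest probe. Blue points are B41 HET arrays and orange points B41 KO arrays (3 each), and the line at 0 is the B41 HET mean. The genotypes do not overlap for any of these genes, with Atf4 lowest and Ddit4 and Lamtor2 above 0.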

How the data were processed

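Microglial RNA of 3 B41 HET and 3 B41 KO samples was compared on Agilent arrays. The authors deposited scanner output made with Feature Extraction 11.5.1.1, whose intensity values have background removed array by array and no scaling across arrays. The authors also deposited processed log2 values, with no stated scale, which served as an alternative. Here control spots and 95 to 136 outlier spots per array were left out, log2 intensities were quantile normalized, spots of 1 probe were averaged, and genotype was tested with limma 3.58.1 in R 4.3.3 with Benjamini-Hochberg adjustment, without a filter on dim probes, for 56601 probes with values on at least 2 arrays per genotype. Quantile normalization, limma and the thresholds follow the study's methods. Of 56605 probes, 33767 (59.7%) could be named through RefSeq transcript accessions. The design of the array names another genome build than the RefSeq table, so no positions of probes are given. The number of arrays limits the precision.

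Per-array values are given for genes called on any probe, *Map1lc3b*, *Sqstm1*, *Becn1*, *Atg5* and *Ulk1*, and the gene with the largest difference in each role, while genes of the surrounding pathway are named where called on the brightest probe. Genes named outside this rule were chosen after their values were seen. The members, roles, marker lists and pathway lists were chosen with earlier results of these data known. Alternatives were a shift to the 75th percentile, the authors' values, normexp (offset 50) on median signals, outlier spots kept, only probes above background on 3 or more arrays, trend and robust variance, replicate number or slide row as a block, each array left out in turn, other fold thresholds, and other probes to stand for a gene. The model was tested on simulated data. Figures were drawn with matplotlib. The result of 1 further marker list is not reported here.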

Additional observations from a re-analysis of the deposited data

How the results depend on the processing

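The median difference of the 37 genes stayed negative under every alternative run, between -0.22 and -0.10. Counts moved more. Against 3 autophagy genes called lower, none higher, 5 probes, and 9 surrounding genes lower and 2 higher, all became 0 with slide row as a block, where 200 of all named genes were called. Rows hold unequal genotypes, and that fit compares B41 KO replicate 1 with B41 HET. Same-numbered samples did not deviate together (correlations 0.0276, 0.0136 and 0.0478), and with the replicate block all counts were also 0, with 21 of all named genes called against 1279. Leaving out 1 array gave 0 to 2 autophagy genes lower (0 without B41 HET replicate 1 or 2), 0 to 3 probes, 1 to 5 surrounding genes lower and 0 higher, and 367 to 701 of all named genes. Surrounding genes called higher were 1 with the 75th percentile shift or a fold of 1.5, 1 with normexp (neither *Ddit4* nor *Lamtor2*), and 4 with no fold threshold, where 1 autophagy gene was higher. Autophagy probes called were 3 with normexp or a fold of 1.5. *Sqstm1* kept its call in 11 of 15 refits, *Rb1cc1* in 7 and *Atg9a* in 6. Probes near background, as for *Atg4a*, limit what can be detected.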

Other observations

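The genes given here lie outside the rule for named genes and were chosen after their values were seen. Of all 23462 named genes, 1729 (7.37%) were called on any probe and 1279 on the brightest. Of the 79 surrounding genes, 5 were called only on a probe other than the brightest. *Tfeb*, the master regulator of lysosomal genes, differed by -0.56 ± 0.08 (SE, adjusted p = 0.0174 by limma) on that probe and by -0.33 and -0.35 on its other two. *Rubcn*, an inhibitor of the class III PI3 kinase, differed by -0.77 ± 0.13 (adjusted p = 0.0277 by limma) on one probe and by -0.06 (adjusted p = 0.79) on its brightest, where the genotypes overlapped. *Nrbf2*, a subunit of that kinase complex, differed by -0.52 ± 0.09 (adjusted p = 0.0309 by limma) and by -0.28 (adjusted p = 0.111) on its brightest probe. *Wdfy3*, a scaffold of selective autophagy, differed by -0.62 ± 0.11 (adjusted p = 0.0363 by limma) and by -0.46 (adjusted p = 0.0702) on its brightest probe. A dim probe of *Bcl2* was not well above background on any B41 HET array and was above it on 1 of 3 B41 KO arrays, so no fold is given for it. Its brightest probe differed by 0.30 ± 0.10 (adjusted p = 0.164 by limma).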
